A study of Homo sapiens with 12 samples.

Results

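The cytoplasmic ribosomal protein genes encode the proteins of the small and large subunits of the ribosome that works in the cytosol. They were taken by symbol: protein-coding genes of GENCODE release 44 on the autosomes and X whose symbol is RPL or RPS, a number and at most a final A, X or L. This gave 77 of 19970 protein-coding genes, of which 46 were large subunit (RPL) and 31 small subunit (RPS) genes. They lie scattered over the genome, with 12 on chromosome 19, 7 on chromosome 3 and 6 on chromosome 17. The rule used names only and no measured value.

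H3K4me2, histone H3 dimethylated at lysine 4, was mapped by ChIP-seq, sequencing of immunoprecipitated chromatin, in U-937, an established human myeloid leukaemia line with monocytic features. Cells were grown for 24 h with DMSO (the vehicle), with ATRA at 0.1 µM, with Corin at 0.1 µM, or with ATRA and Corin at 0.1 µM each. Each treatment had 2 H3K4me2 libraries and 1 input library, 12 libraries in all, and no other genotype or cell line was analysed here. The values are 4 peak lists, 1 per treatment, each pooling that treatment's H3K4me2 libraries. No spread between replicates can therefore be given, and every difference between lists is a description of 4 lists without a test. The DMSO, ATRA, Corin and ATRA+Corin lists held 65172, 66385, 73997 and 83969 peaks and covered 73.4, 83.7, 95 and 109 Mb. The read depth behind them is unknown. All 6 myeloid markers looked up (SPI1, CSF1R, LYZ, CD33, CD68 and FCGR1A) had a peak within 1 kb of the start site in every list, against 1 of 6 markers of other cell types.

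Ribosomal protein genes are among the most highly transcribed genes of dividing cells. Their promoters mostly lack a TATA box, and transcription characteristically starts at a C inside a run of pyrimidines, which becomes the 5′ terminal oligopyrimidine (TOP) tract through which mTOR signalling controls translation of the mRNA. H3K4me2 sits on nucleosomes on both sides of active start sites, while the start site itself is often depleted of nucleosomes. ATRA, all-trans retinoic acid, activates retinoic acid receptors and drives myeloid differentiation. Corin is a dual inhibitor of the demethylase LSD1, which removes H3K4me1 and H3K4me2, and of the histone deacetylases of the CoREST complex.

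The start site used for each gene is the first base of its GENCODE canonical transcript on GRCh38. The following windows show what the start sites hold: 50 bases before the start site and the 10 bases from it, on the coding strand, with the unbroken run of C and T that begins at the start site in capitals. The first set comes from genes whose start site lay in a gap between peaks, chosen for their roles: RPS6, the target of S6 kinase, and genes affected in Diamond-Blackfan anaemia or, for RPS14, in 5q- syndrome. The windows are chr9:19380227-19380286 (- strand) for RPS6, chr1:23691756-23691815 (+ strand) for RPL11, chr1:92831990-92832049 (+ strand) for RPL5, chr10:78033813-78033872 (+ strand) for RPS24, chr5:150449730-150449789 (- strand) for RPS14, all on hg38.
RPS6: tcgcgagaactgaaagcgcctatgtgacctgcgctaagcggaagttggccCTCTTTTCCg
RPL11: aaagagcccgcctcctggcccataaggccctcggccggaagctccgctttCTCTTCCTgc
RPL5: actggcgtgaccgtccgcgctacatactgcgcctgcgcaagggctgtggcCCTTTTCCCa
RPS24: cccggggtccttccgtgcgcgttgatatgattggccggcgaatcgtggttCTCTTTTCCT
RPS14: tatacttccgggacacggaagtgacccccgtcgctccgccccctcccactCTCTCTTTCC

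The second set holds the 4 members whose start site lay under a peak in every list. Their windows are chr19:41860205-41860264 (+ strand) for RPS19, chr6:35468351-35468410 (+ strand) for RPL10A, chr15:63157468-63157527 (- strand) for RPS27L, chr3:187139487-187139546 (- strand) for RPL39L.
RPS19: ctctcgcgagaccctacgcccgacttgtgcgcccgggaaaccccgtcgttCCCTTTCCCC
RPL10A: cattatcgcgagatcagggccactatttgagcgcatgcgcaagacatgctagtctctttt
RPS27L: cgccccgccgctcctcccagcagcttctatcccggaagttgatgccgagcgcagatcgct
RPL39L: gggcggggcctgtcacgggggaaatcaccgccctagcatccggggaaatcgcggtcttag

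Among the last 4, only RPS19 has a C at the annotated start base and a pyrimidine run from it. In the RPL10A window a pyrimidine run begins shortly after the annotated start base. Runs were counted from that base only, so such a run counts as none. Over all 77 members the start base was C in 58 (75.3%), against 10.7% of all protein-coding genes, and a C followed by further pyrimidines to a run of at least 5 was found in 54 (70.1%), against 4.59%. The run reached 19 bases in RPL39 and its median was 7. The share was 77.6% (38 of 49) among members with a gap in every list, and 5.50% among the 2217 other genes with a gap in the DMSO list. Members with this start had a gap in 45 of 54 cases in the DMSO list, and the other members in 14 of 23. This difference between the members was not tested.

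A start site was called covered when its base lay under a peak. It was called in a gap when it lay outside every peak and had a peak within 2 kb on each side. The sequence below is a whole gap of the DMSO list, shown because it is short enough to read: 141 bp at RPL27A (chr11:8682657-8682797, + strand). The capitals mark the part of the pyrimidine run at the start site that lies inside the gap, and the flanking peaks begin right outside the printed bases.
RPL27A: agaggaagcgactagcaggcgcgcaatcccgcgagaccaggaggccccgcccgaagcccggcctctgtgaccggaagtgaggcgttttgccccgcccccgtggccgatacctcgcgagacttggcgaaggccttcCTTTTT

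The start site lies near the 3′ end of the gap: the downstream peak begins 6 bp after the RPL27A start, while the upstream peak ends 136 bp before it. The gap holds the letters CCGGAA, the core bound by ETS family factors. In the RefSeq promoter table (GRCh38.p14, 250 bases before to 50 after each start), which matched 60 members, CCGGAA on either strand was in 34 members (56.7%), against 23.1% of all 15322 promoters. GGGCGG, a GC box, was in 34 (56.7%) against 59.2%, and TATAAA was in 5 (8.33%) against 9.63%. AAGATGG, a YY1 motif, was in 8 (13.3%) against 6.43%. These are matches of letters over windows of equal length and say nothing of binding.

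Most ribosomal protein genes carried H3K4me2 on both sides of the start site, with no peak over it. A peak lay within 1 kb of the start site in 75 of 77 members (97.4%) in every list, against 61.3%, 61.5%, 61.5% and 62.3% of all protein-coding genes in the DMSO, ATRA, Corin and ATRA+Corin lists. The start site lay in a gap in 59 members (76.6%) with DMSO, 56 (72.7%) with ATRA, 67 (87.0%) with Corin and 70 (90.9%) with ATRA+Corin. The same state was found in 11.4%, 11.0%, 21.1% and 21.6% of all protein-coding genes, and in 18.5%, 17.8%, 34.2% and 35.1% of the 12245 that had a DMSO peak within 1 kb. Covered start sites were correspondingly few, with 15 (19.5%), 18 (23.4%), 8 (10.4%) and 5 (6.49%) members in the same order, against 47.3%, 48.1%, 38.0% and 38.0% of all genes and 77.1%, 78.1%, 61.6% and 61.2% of those with a DMSO peak. Both subunits shared the pattern: the gap was found in 36, 33, 39 and 41 of 46 RPL genes and in 23, 23, 28 and 29 of 31 RPS genes.

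**Figure D1:**
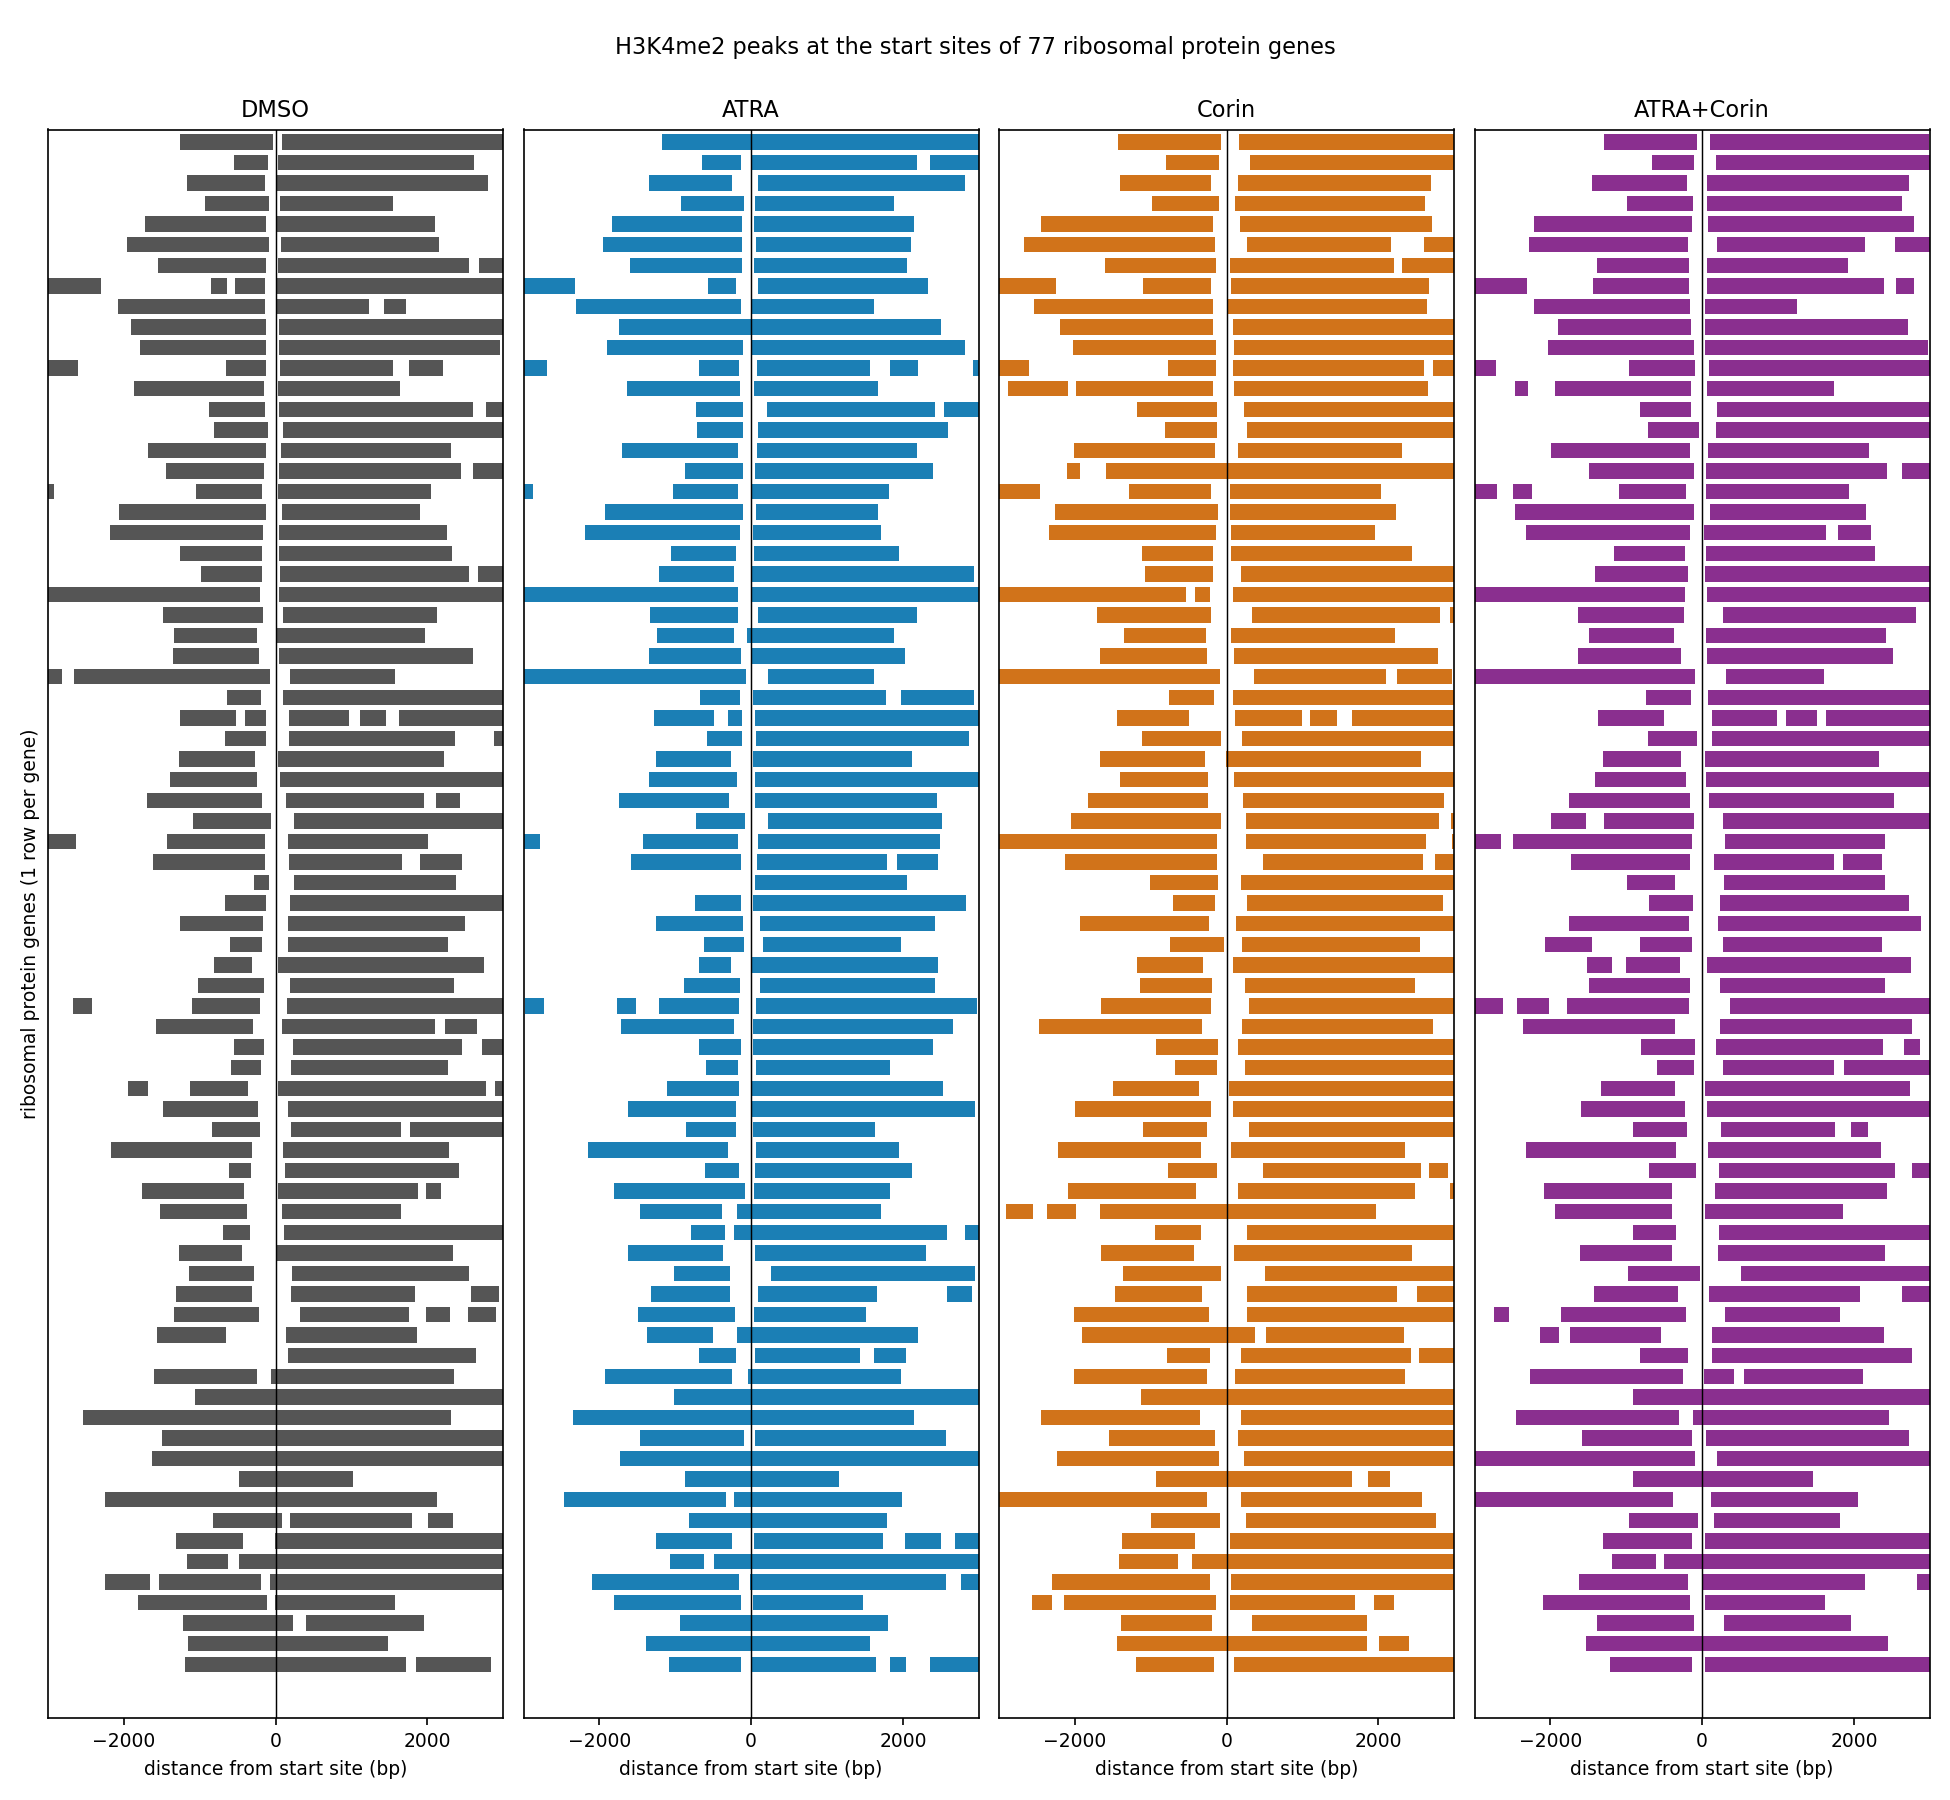
Every deposited peak within 3 kb of the start site of the 77 genes, with 1 row per gene and 1 panel per list. The horizontal axis is the distance from the start site in bp, downstream to the right, bars are peaks, and the vertical line is the start site. Rows carry no gene names and are sorted by state and gap width in the DMSO list, and the white band at the line is the gap held by 59, 56, 67 and 70 genes.

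The narrowest distance between any 2 peaks was 102 bp in each list, so a shorter gap is not seen in these files. No 2 peaks of a list overlapped or touched. Cover depended on which annotated start was used and on the distance allowed. When a member counted as covered if any of its annotated basic transcripts began under a peak, 38, 45, 36 and 32 members were covered in the 4 lists (49.4%, 58.4%, 46.8% and 41.6%). These shares lay near the 54.2%, 54.7%, 47.9% and 48.1% of all genes counted the same way. With a peak allowed up to 50 bp away 38, 50, 16 and 21 members were covered (49.4%, 64.9%, 20.8% and 27.3%), against 55.3%, 55.4%, 48.8% and 48.7% of all genes.

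The gap was the same state across lists for most members. 49 members (63.6%) had a gap in all 4 lists, against 6.20% of all protein-coding genes and 10.1% of those with a DMSO peak within 1 kb. By contrast, 30.8% of all genes but 4 members were covered in every list. RPS19, the gene most often mutated in Diamond-Blackfan anaemia, is among these 4. Its covering peak began 478, 487, 463 and 499 bp before the start with DMSO, ATRA, Corin and ATRA+Corin and ran 3637, 3073, 3523 and 4123 bp past it. A gap of 115 to 184 bp separated that peak from the next one upstream in the 4 lists, below the lower quartile of the members' gap widths in each list.

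RPL10A, a large subunit protein, lay under a peak that began 914 to 1127 bp before the start and ended 3677 to 4149 bp after it, with no break within 3 kb. RPS27L, a p53-induced relative of RPS27, and RPL39L, a testis-enriched relative of RPL39, were the other members covered in every list. With the most 5′ annotated start in place of the canonical start, RPL39L had no peak within 2 kb in any list. RPL3L, expressed in heart and skeletal muscle, and RPL10L, a retrotransposed copy expressed in testis, had no peak within 2 kb of the start site in any list, a state found in 36.8%, 36.4%, 36.4% and 35.4% of all genes. The tissue-restricted and p53-linked relatives thus held 2 covered and 2 bare start sites and no gap.

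Cover by position drew the same shape over the whole group. With DMSO the share of members under a peak was 92.2% at 450 bp before the start site, 18.2% at 50 bp before it and 97.4% at 950 bp after it. The lowest share within 1 kb was 19.5% with ATRA and 10.4% with Corin, both at 50 bp before the start, and 6.49% with ATRA+Corin at the start itself. Over the 12245 genes with a DMSO peak within 1 kb, the share at 50 bp before the start was 67.9%, 69.9%, 54.3% and 54.0%. At 2000 bp after the start, 77.9%, 64.9%, 92.2% and 83.1% of members were still under a peak, against 35.9%, 39.2%, 56.1% and 59.6% of those genes.

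**Figure D2:**
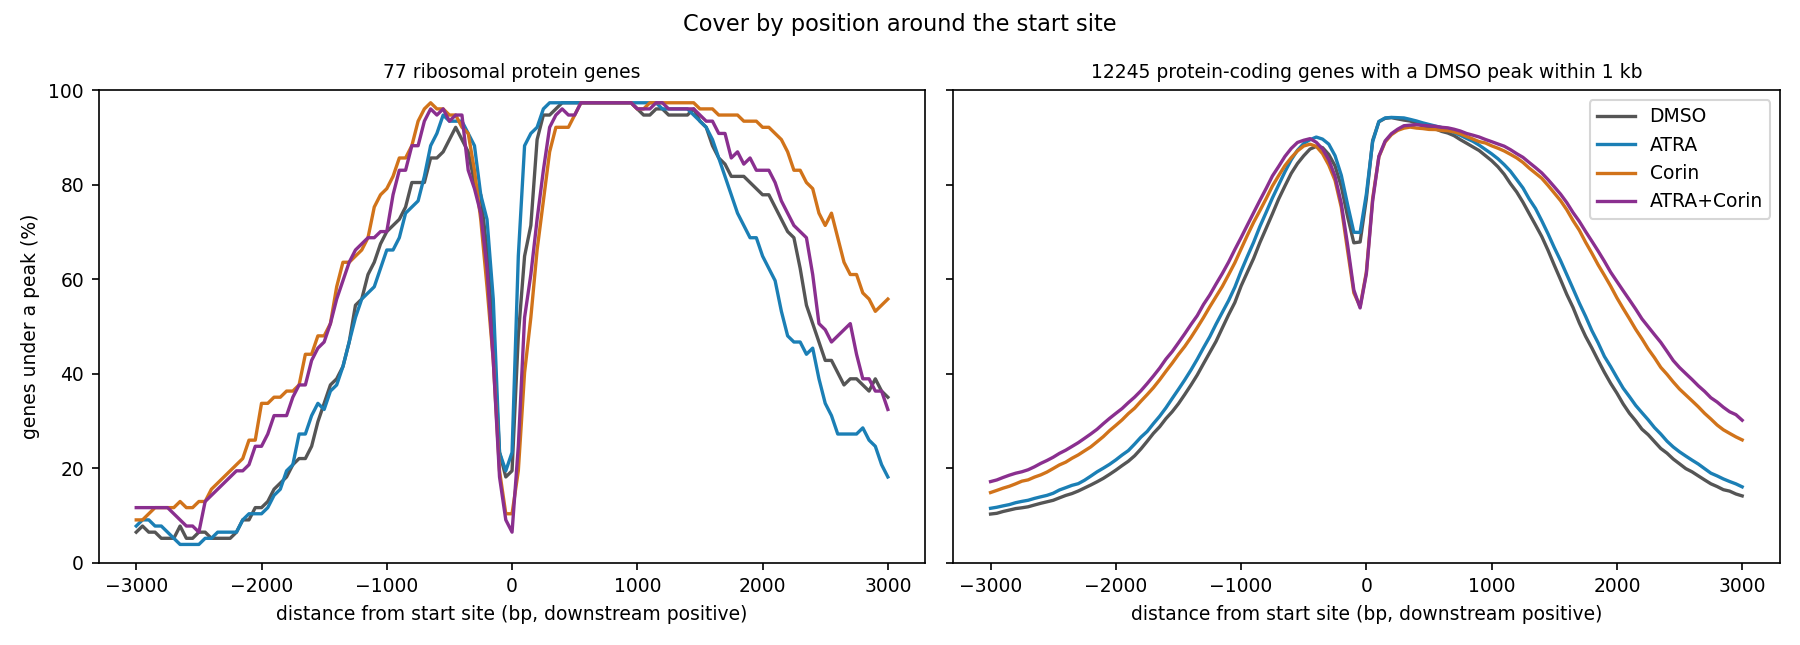
Share of genes under a peak (vertical axis, %) by distance from the start site (horizontal axis, bp, in steps of 50, downstream positive), with 1 line per list. The left panel holds the 77 ribosomal protein genes and the right panel the 12245 protein-coding genes with a DMSO peak within 1 kb. The dip at the start is deeper at left (to 18.2% with DMSO) than at right, and the ATRA line lies under the DMSO line beyond 2000 bp at left but not at right.

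The members' median gap was wider than that of all genes in each list. The median width was 302 bp with DMSO (range 124 to 782, 59 genes), 226 bp with ATRA (118 to 536, 56 genes), 360 bp with Corin (154 to 610, 67 genes) and 296 bp with ATRA+Corin (142 to 676, 70 genes). Over all protein-coding genes with a gap the medians were 206, 204, 239 and 239 bp. The middle part of the distribution, between the quartiles, ran from 188 to 380 bp with DMSO and from 166 to 264 bp with ATRA. Gaps of at least 300 bp were found in 30, 7, 44 and 34 members, which is 50.8%, 12.5%, 65.7% and 48.6% of those with a gap. Over all genes with a gap the shares were 25.3%, 22.7%, 35.7% and 35.4%, so with ATRA the members' share was the lower one. The ATRA list thus held the narrowest gaps and the Corin list the widest, with wide overlap between the lists.

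**Figure D3:**
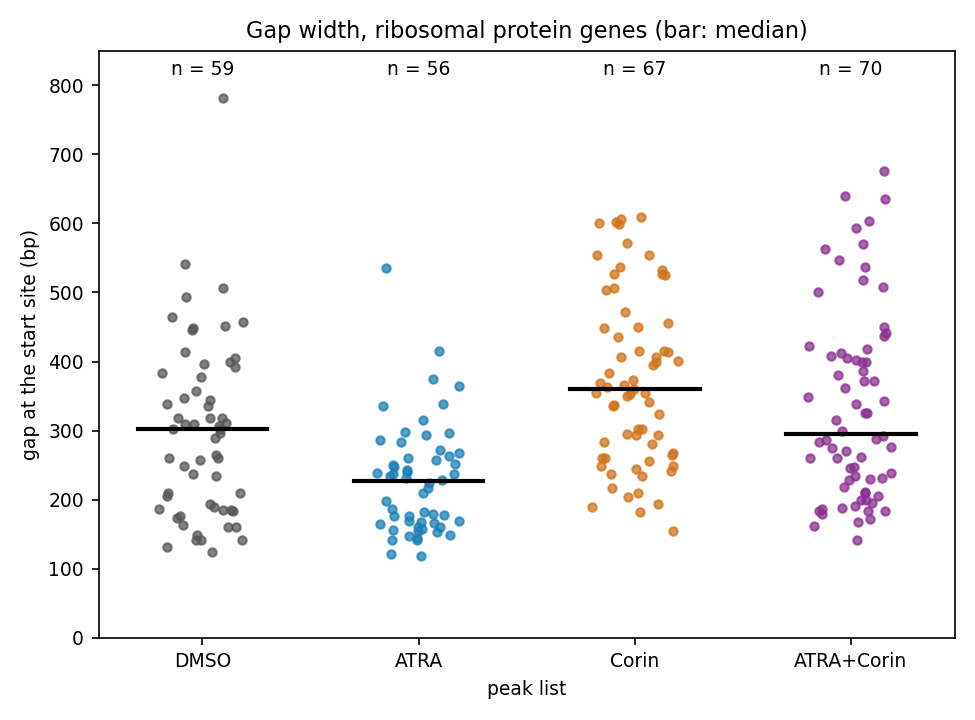
Width of the gap at the start site (vertical axis, bp) in each peak list, with 1 point per ribosomal protein gene that has a gap there and a black bar at the median. The medians are 302, 226, 360 and 296 bp, and the points of the 4 lists overlap over most of their range.

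Because the lists hold different genes in a gap, the 49 members with a gap in all 4 were also taken alone. Their median widths were 302, 229, 366 and 315 bp. The ATRA list held the narrowest of the 4 gaps in 32 of them (65.3%), against 43.9% of the 1238 protein-coding genes with a gap in every list. The Corin list held the widest in 26 (53.1%), against 44.7%.

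Single genes ranged widely. RPL21, of the large subunit, had the widest gap with DMSO, 782 bp, and one of 676 bp with ATRA+Corin, while its start was covered in the ATRA and Corin lists. RPL34 had gaps of 541, 248, 503 and 518 bp in the DMSO, ATRA, Corin and ATRA+Corin lists, so the ATRA list alone stood low. RPL27 had 506, 365, 599 and 399 bp. RPL35A, a Diamond-Blackfan anaemia gene, had 493, 536, 571 and 547 bp, close to each other in width in all 4 lists. The position of its gap differed. The flanking peaks lay 281 bp before and 213 bp after the start with DMSO, and 70 bp before and 502 bp after it with Corin. RPS29, of the small subunit, had 465, 415, 527 and 604 bp at its canonical start, but its RefSeq start and its most 5′ start were covered in every list.

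At the other end, RPL11, which binds MDM2 when ribosome assembly fails, had gaps of 132, 141, 416 and 292 bp: its gap was narrow with DMSO and ATRA and wider in both lists with Corin. RPL27A had 141, 339, 354 and 262 bp, with the DMSO gap the narrowest of the 4. RPS20 had 142, 141, 209 and 179 bp. RPS28 had 142, 156, 350 and 218 bp. All 4 gaps are under 150 bp with DMSO, and joining peaks up to 150 bp apart turns each of them into a covered start there.

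The remaining members named for their roles held gaps in most lists. RPS6 had gaps of 336, 232, 360 and 381 bp on chromosome 9, the first at chr9:19380073-19380408. RPL5, which forms a complex with RPL11 and 5S rRNA, had 446, 210, 606 and 299 bp. RPS24 had 405, 229, 554 and 450 bp. In RPL5 and RPS24 the ATRA list held the narrowest gap and the Corin list the widest. RPS7 was nearly level at 310, 298, 324 and 372 bp. RPS27A, whose protein is made as a fusion with ubiquitin, had 449, 118, 554 and 563 bp at its canonical start, and its RefSeq start was covered in every list. RPS14, lost in 5q- syndrome, had gaps of 319, 302 and 639 bp with DMSO, Corin and ATRA+Corin, while the ATRA list had a peak only downstream within 2 kb. RPL22, mutated or deleted in some leukaemias, had 261, 337 and 418 bp in the same 3 lists and was covered with ATRA; its most 5′ annotated start was covered in those 3 lists.

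The start site lay off the centre of the gap. Of the bases in the members' gaps, 65.9% lay upstream of the start with DMSO, 72.9% with ATRA, 53.1% with Corin and 58.8% with ATRA+Corin, against 72.9%, 70.9%, 65.8% and 64.9% for all genes. The upstream peak ended a median of 164, 146, 182 and 166 bp before the start, and the downstream peak began a median of 82, 48.5, 153 and 95 bp after it. Over all genes with a gap the downstream medians were 37, 39, 56 and 57 bp, and the upstream median with DMSO was 160 bp. The extra width of the members' gaps with DMSO thus lay on the downstream, transcribed side.

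The downstream flanking peak was the broader. It was wider than the upstream one in 55 of 59, 50 of 56, 60 of 67 and 58 of 70 members (93.2%, 89.3%, 89.6% and 82.9%), against 74.6%, 76.0%, 77.2% and 76.7% of all genes with a gap. Its median width was 2214, 2111.5, 2592 and 2354.5 bp, and that of the upstream peak 1030, 1052, 1219 and 1236.5 bp. The members are short genes, with a median length of 5548 bp against 27476.5 bp for all protein-coding genes. Peaks covered a median of 49.5%, 47.1%, 55.3% and 49.7% of the gene body, against 3.76%, 4.26%, 4.91% and 5.64% over all genes, which include those without a peak. The downstream peak reached past the annotated end of the gene in 6, 6, 10 and 7 members, which is 10.2%, 10.7%, 14.9% and 10.0% of those with a gap, against 2.90%, 2.59%, 2.97% and 2.71% of all genes with one.

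The authors' fold enrichment over input at the summit had a median of 12.3, 17.8, 13.5 and 17.7 in the members' upstream peaks and 15.3, 20.2, 15 and 18.9 in the downstream peaks. These values rank peaks within a list and set no level between lists. With DMSO the median downstream peak of a member stood at percentile 74.6 of its list by the deposited q-value, against 75.8 for all genes with a gap. With DMSO the downstream flanking peaks of members were therefore broader than those of all gapped genes and ranked alike in strength.

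With ATRA alone, the gaps were narrower and the downstream cover shorter than with DMSO. Of the 15 members covered with DMSO, 4 were uncovered in the ATRA list (all genes 8.23%), among them RPL35, RPS21 and RPS9. Of the 62 not covered, 7 were covered with ATRA (all genes 8.90%), among them RPL14, RPL21, RPL22, RPL32, RPL8 and RPS23. With any annotated start counted, 2 of the 38 members covered with DMSO were uncovered (5.26%, all genes 4.98%). In the 51 members with a gap in both lists, it was narrower with ATRA in 36 (70.6%), against 54.7% of 1425 genes, and the median difference was -44 bp, against -7 bp. The upstream near edge lay farther from the start in 16 of 51 (all genes 41.6%) and the downstream near edge in 12 of 51 (all genes 48.1%). The far edge of the downstream peak lay farther from the start with ATRA in 17 of 51 (33.3%), against 66.9% of all such genes, and the median difference was -131 bp in members and 56 bp over all genes. On this measure the members and the rest of the genes lay on opposite sides of 0.

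With Corin alone, covered starts became gaps and gaps were wider. Of the 15 members covered with DMSO, 11 were uncovered (73.3%), against 24.4% of all genes covered with DMSO. With any annotated start counted, 4 of 38 were uncovered (10.5%), against 1619 of 10815 genes in all. On that count the members' share was not the higher one. At the most 5′ start 9 of 21 were uncovered (42.9%, all genes 23.2%). With RefSeq starts the count was 10 of 18 (55.6%, all genes 23.4%). Both alternatives share the canonical base in many members. At the canonical start, 4 of 62 became covered (all genes 4.39%), among them RPL21, RPL36A and RPS23. With the most 5′ annotated start, RPL36A and RPL8 were covered in every list. The gap was wider with Corin in 44 of 55 members (80.0%), a share near the 78.0% of all genes, with a median difference of 78 bp against 53 bp, and narrower in 11 (all genes 21.7%). The downstream near edge lay farther from the start in 45 of 55 (all genes 77.5%) and the upstream near edge in 37 of 55 (all genes 62.6%). The far edge of the downstream peak lay farther in 47 of 55 (85.5%, all genes 86.7%), by a median of 401 bp against 367 bp, and that of the upstream peak in 52 of 55 (all genes 83.9%). The median difference of the upstream far edge was 243 bp in members and 170 bp over all genes. Apart from the starts uncovered and the upstream far edge, the members' shares in this comparison were near the background.

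With ATRA and Corin together, 10 of the 15 members covered with DMSO were uncovered (66.7%, all genes 25.2%), and none of the other 62 became covered (all genes 5.09%). With any annotated start counted, 6 of 38 were uncovered (15.8%), a share near the 15.4% of all genes. At the most 5′ start 8 of 21 were uncovered (38.1%, all genes 23.5%). Among the 59 members with a gap in both lists, it was wider in 41 (69.5%, all genes 74.6%), by a median of 43 bp against 49 bp. The far edge of the downstream peak lay farther in 38 of 59 (64.4%), against 87.8% of all genes, and by a median of 63 bp against 444 bp. The upstream far edge lay farther in 53 of 59 (all genes 85.9%), by a median of 182 bp against 216 bp. The upstream peak thus reached farther in most members, as it did in most of all genes. The members' downstream far edge moved both ways, from 6331 to 2718 bp at RPL8 and from 1551 to 3364 bp at RPS27. In every comparison the far edge is that of the nearest peak only, so a break in a peak shortens it. At RPS27 with DMSO a further peak lay from 1760 to 2206 bp after the start.

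Adding Corin to ATRA was compared directly. Of the 18 members covered with ATRA, 13 were uncovered with both drugs (72.2%, all genes 25.0%) and none of 59 became covered (all genes 3.83%). The gap was wider in 51 of 56 members (91.1%, all genes 80.7%), by a median of 69 bp against 54 bp. Adding ATRA to Corin went the other way in width. The gap was narrower with both drugs than with Corin in 44 of 66 members (66.7%), against 51.8% of all genes, and the median difference was -30 bp against -4 bp. The far edge of the downstream peak lay farther in 14 of 66 (21.2%), against 61.5% of all genes, with a median of -208 bp against 50 bp. Of 8 members covered with Corin, 4 were uncovered (all genes 14.8%), among them RPL21, RPL36A and RPS23, and of the 69 others RPL19 alone was newly covered (all genes 9.06%). Counting any annotated start, 4 of 36 were uncovered (11.1%, all genes 8.59%). ATRA against DMSO and ATRA+Corin against Corin use different pairs of lists, and by the median in both the members' downstream peaks ended closer to the start while those of all genes ended farther out.

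**Figure D4:**
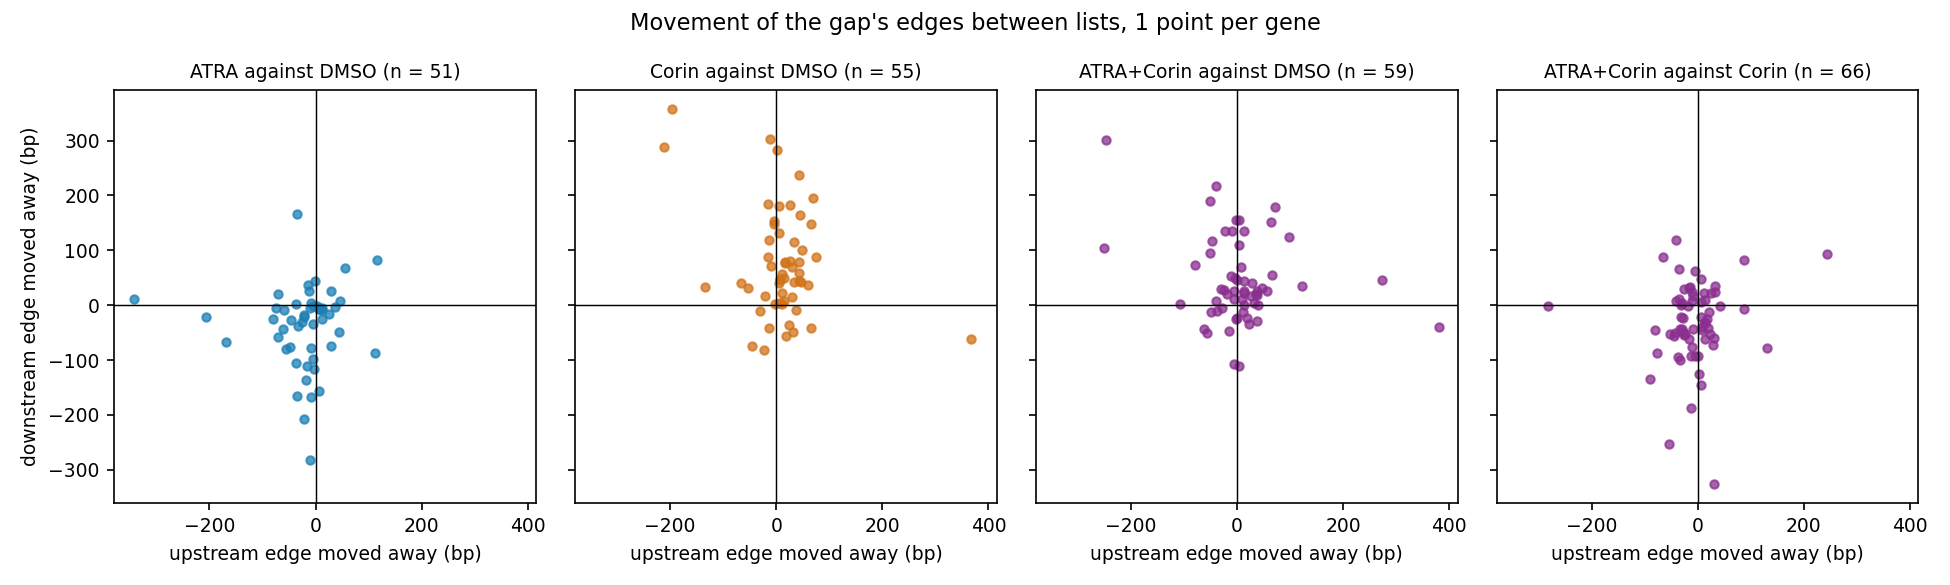
Shift of the gap's edges between lists, with 1 point per ribosomal protein gene that has a gap in both lists. The horizontal axis is the shift of the upstream edge away from the start site and the vertical axis that of the downstream edge, both in bp. Points lie mostly above the horizontal line for Corin against DMSO (45 of 55) and mostly below it for ATRA against DMSO.

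6 members were covered with DMSO and with ATRA and lay in a gap in both lists with Corin: RPL4, RPS26, RPL39, RPL10, RPS10 and RPS2. This is 7.79% of members and 4.77% of all genes, or 7.77% of those with a DMSO peak within 1 kb, a share near the background. RPL4 was covered from 2253 bp before to 2123 bp after its start with DMSO, and had gaps of 448 bp with Corin and 501 bp with ATRA+Corin, the latter at chr15:66504739-66505239. RPL39 was covered from 1630 bp before to 4006 bp after its start with DMSO, and had gaps of 336 and 284 bp. With ATRA the peak over the start of RPL4 began 224 bp before it, beside a gap of 106 bp.

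The other 4 lay closer to an edge with DMSO. RPS26, a Diamond-Blackfan anaemia gene, had its covering peak end 230 bp after the start with DMSO, followed by a gap of 165 bp, and had gaps of 525 and 399 bp over the start with Corin and ATRA+Corin. RPS10, of the same disease group, had its peak end 82 bp after the start with DMSO, followed by a gap of 110 bp, and had gaps of 342 and 209 bp with the Corin treatments. RPL10, mutated in T-cell leukaemia, had its peak begin 57 bp before the start with DMSO and gaps of 369 and 271 bp with the Corin treatments. RPS2 had its peak begin 69 bp before the start with DMSO and gaps of 268 and 191 bp. In these 4 a gap was already present beside the start with DMSO, and in both Corin lists the start base lay in a gap. With ATRA, RPL10 and RPS2 also had a gap beside the start. RPS10 and RPS26 had none there: their peaks ran from 826 bp before to 1785 bp after the start, and from 940 to 1808 bp. With the RefSeq start, RPL10 was covered in both Corin lists, and with the most 5′ start so was RPS26, while RPL4 had no peak within 2 kb in any list.

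The same closeness held for other covered starts. With DMSO, 6 of the 15 covered members had an edge of their peak within 250 bp of the start (all covered genes 23.1%), with ATRA 8 of 18 (all covered genes 20.2%), and with Corin and with ATRA+Corin 1 each, the latter RPL19. The peak over the RPL14 start with ATRA began 2 bp before it, next to a gap of 170 bp. For such genes a small shift of a peak edge alters the state.

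The largest increases in width between DMSO and ATRA+Corin were at RPL41, by 340 bp, and RPS14, by 320 bp. RPL41, which encodes the smallest ribosomal protein, had gaps of 296, 177, 602 and 636 bp in the DMSO, ATRA, Corin and ATRA+Corin lists. In the first 2 lists a peak of its own lay between 128 and 411 bp, or 125 and 306 bp, before the start, and in both Corin lists no peak lay there. RPL37 differed by 251 bp (257 and 508 bp), RPL15 by 223 bp (149 and 372 bp), RPL18 by 216 bp (378 and 594 bp) and RPL24 by 179 bp (358 and 537 bp). In all 6 except RPS14 the gap was wider than with DMSO in both lists with Corin; that of RPS14 was 302 bp with Corin alone. RPL15 was covered in every list at its RefSeq start. The largest decreases were at RPL5 (-147 bp), RPS18 (-112 bp), RPL27 and RPS3 (-107 bp each). RPL17 was the member without an upstream peak with DMSO, and had gaps of 251, 407 and 326 bp in the other lists.

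Gap widths of the same gene in different lists were compared across the members. Spearman's rho was 0.35 between DMSO and ATRA (51 genes), 0.61 between DMSO and Corin (55 genes) and 0.73 between DMSO and ATRA+Corin (59 genes). Over all genes with a gap in both lists it was 0.71, 0.61 and 0.61. These points share their gene and its base composition. Width was lower where the GC content around the start was higher, with a rho of -0.42, -0.17, -0.36 and -0.35 in the 4 lists. The members' median GC content over 301 bp was 60.1%, against 63.5% for all protein-coding genes. The part of GC content in the gap was not tested.

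Neighbours on the other strand went with the upstream peak. A gene starting on the opposite strand within 1 kb upstream was annotated for 27 members, such as LRSAM1 at RPL12 (104 bp) and ZWILCH at RPL4 (471 bp). In members with a gap the median upstream peak was 1317.5 bp wide with such a neighbour and 859 bp without with DMSO, and 1924 and 968 bp with Corin. The median gap was 262 and 303 bp with DMSO. No values over all protein-coding genes are set beside those for neighbours, so neither their number nor the wider upstream peak is shown to be particular to the members. Of the members, 26 (33.8%) hold a small nucleolar RNA gene inside them, against 1.28% of all protein-coding genes. Their median gap was 302 bp with DMSO, and that of members without was 296 bp. With ATRA+Corin the medians were 266 and 340 bp.

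The lists of related genes are described by counts, beside a gap in 11.4%, 11.0%, 21.1% and 21.6% of all protein-coding genes. Nearly all genes of these lists had a peak within 1 kb of the start site. Among protein-coding genes with a DMSO peak within 1 kb, 18.5%, 17.8%, 34.2% and 35.1% had a gap. Of 11 ribosomal protein genes outside the symbol rule (such as RPLP0, RPSA and FAU), 8, 5, 8 and 9 had a gap in the DMSO, ATRA, Corin and ATRA+Corin lists (72.7%, 45.5%, 72.7% and 81.8%). Of 18 genes for translation factors and other TOP mRNAs, 12, 9, 15 and 15 had one (66.7%, 50.0%, 83.3% and 83.3%): EEF2, the translocation factor, had 109, 144, 345 and 166 bp. Of 78 mitochondrial ribosomal protein genes, whose products serve the ribosome of mitochondria, 30, 32, 49 and 48 had one (38.5%, 41.0%, 62.8% and 61.5%). Of 20 ribosome biogenesis genes, 7, 4, 12 and 10 had one. The median DMSO gap of these 4 lists was 194, 214, 186 and 199 bp, under the 302 bp of the members with a gap. With the drugs, that order held in every peak list only for the mitochondrial ribosomal protein genes. The medians were 207, 250, 196 and 274 bp with ATRA (members 226 bp). They were 387, 371, 222 and 468 bp with Corin (members 360 bp) and 275, 310, 238 and 314 bp with ATRA+Corin (members 296 bp).

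**Figure D5:**
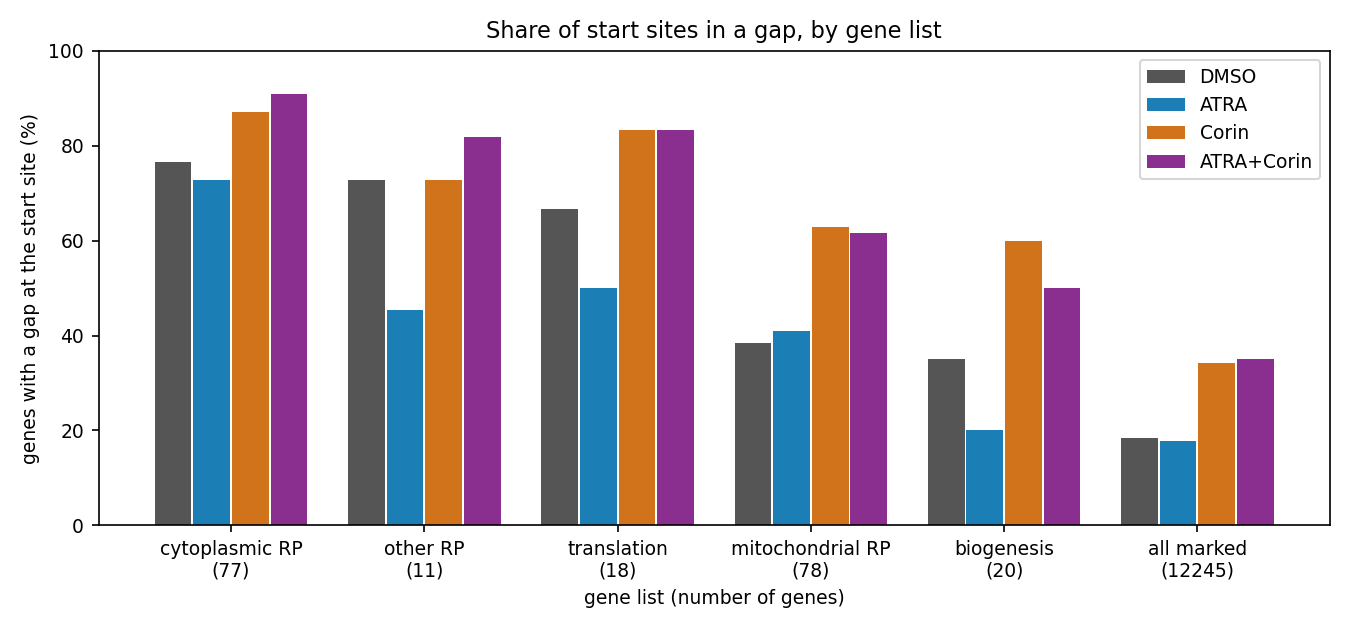
Share of genes whose start site lies in a gap (vertical axis, %) for each gene list (horizontal axis, number of genes in brackets; RP, ribosomal protein; all marked, protein-coding genes with a DMSO peak within 1 kb), with 1 bar per peak list. In each of the 4 peak lists the 77 cytoplasmic ribosomal protein genes have the highest bar, from 72.7% to 90.9%.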

How the data were processed

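Peak lists of 4 treatments were analysed. The 12 libraries were grouped by treatment from their titles; 8 are H3K4me2 and 4 input, and each list pools the H3K4me2 libraries of its treatment. Trimmomatic, Bowtie2, Picard and MACS2, and the build hg38, are named in the submitters' processing notes; their versions, settings and threshold are not given in the sources used here. The deposited lists give each peak's position, the authors' fold enrichment over input (a ratio) and the authors' −log10 of the q-value; q-values and folds were used to rank or filter peaks within a list. All peaks lay inside GRCh38 chromosomes.

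Start sites are the first bases of GENCODE release 44 canonical transcripts. Cover, gap (a peak within 2 kb on each side), widths and edge distances were computed for all 19970 protein-coding genes with Python 3.11.15 and numpy 2.4.6, and the code was tested on simulated data. Distances count from the start base as 0, in the direction of transcription. With pooled lists the error of a peak edge cannot be measured. Medians and counts are set beside all genes, and no test was made.

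The members and lists were chosen with earlier results of these data known. Genes were named for a role (relatives expressed in few tissues or p53-linked, Diamond-Blackfan anaemia and 5q- genes, RPS27A, RPS6, RPL22, RPL10) or by value: the 5 widest and 5 narrowest DMSO gaps, the 6 members covered without Corin and gapped with it, the 6 largest increases and 3 largest decreases between DMSO and ATRA+Corin, and members of classes of 5 or fewer. A few genes of these classes are not reported here. Others named were chosen after their values were seen. Alternatives varied the start site, peak threshold and number, overlap, joining and flank. RefSeq starts were chosen as an alternative after seeing the data.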

Additional observations from a re-analysis of the deposited data

How the results depend on the processing

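Over 40 results and 10 alternatives, 287 of 322 values stayed within 1.5 times the reported count or within the 95% interval of the reported median across genes. The other 35 moved further and 0 reversed. Only a median difference whose interval excluded 0 could count as reversed. Counts could not, and the order of members against all genes was not part of these labels. No result moved with peaks of a −log10 q of at least 5, with equal peak numbers, with the whole 50 bp window covered, or with flanks of 1 or 5 kb. Under every peak, joining and flank setting, 51, 48, 67 and 69 members had a gap in the DMSO, ATRA, Corin and ATRA+Corin lists.

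With the most 5′ start, 15 members were covered with Corin and 14 with ATRA+Corin; newly covered were 4 (ATRA against DMSO), 1 (ATRA+Corin against DMSO), 2 (against ATRA) and 2 (against Corin), and 8 were uncovered against ATRA. With any annotated start, 38, 45, 36 and 32 were covered, near the share of all genes; 2, 4 and 6 were uncovered against DMSO with ATRA, Corin and both, 2 were newly covered with Corin, and 0 with both against Corin. With a peak within 50 bp, 38, 50, 16 and 21 were covered; 15 were newly covered with ATRA, 26 uncovered with Corin, 21 uncovered and 4 newly covered with both against DMSO, 31 and 2 against ATRA, and 10 newly covered against Corin. With peaks up to 150 bp apart joined, 17 were uncovered with Corin and 16 with both, and 1 and 2 were newly covered with both against DMSO and Corin. With RefSeq starts, 10 were covered with both drugs, and 1, 1 and 2 newly covered against DMSO, ATRA and Corin. The RefSeq start was the canonical base in 53 of 60 members, and the most 5′ start in 38 of 77; the wider overlap and joining count more starts as covered by construction. No paired analysis was possible because each treatment's libraries were pooled into 1 list, and for the same reason no replicate could be left out.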
